A study of Mus musculus with 8 samples.

Results

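The genes described here are C1qa, C1qb, C1qc, Mrc1, Folr2, Cd163, Mertk, Pf4, F13a1 and Cbr2, which are commonly used to describe resident-type tissue macrophages and the complement C1q that macrophages make. They were taken by symbol, 10 of 23420 genes in the table, and each of them reached the mean of 10 normalized reads asked for in the test, as 14931 genes did. Ntn1-/- chimeras were lethally irradiated ApoE-/- mice, transplanted at 6 weeks of age with fetal liver cells from Ntn1-/- ApoE-/- donors. WT chimeras were ApoE-/- mice of that age that received fetal liver cells from Ntn1+/+ ApoE-/- donors after the same irradiation. Donors and recipients of both groups therefore lacked ApoE, and every mouse had 6 weeks of recovery and then 28 days of angiotensin II by osmotic pump at 1 µg/kg/min, a model of aortic aneurysm. Each group had 4 mice, each giving 1 library of whole aorta, called A to D. Only transplanted cells carried the deletion, whereas the vessel wall of the host kept Ntn1, and host macrophages that outlive irradiation were not separated from those of the donor.

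Ntn1 was read in every aorta, at 5273 to 10224 normalized reads in Ntn1-/- chimeras and 6002 to 9870 in WT chimeras (log2 fold change 0.04, limma adjusted p = 0.959), which is no full check of the labels because the host keeps the gene. The recovered libraries held 19879329 to 28202931 reads in genes. The smooth muscle marker Myh11 was at 41550 to 142174 normalized reads in Ntn1-/- chimeras and 56909 to 118312 in WT chimeras, high throughout as in an artery wall. Other tissues differed between libraries. The summed skeletal muscle markers were at 11397 and 11765 normalized reads in Ntn1-/- B and C, against at most 4010 in the other 6 libraries, and the summed neuron markers at 14705 and 11614, against at most 6357. Over the groups the neuron sums gave an exact 2-sided permutation p of 0.0857, and their mean log2 level, higher by 1.28 in Ntn1-/- chimeras, one of 0.0286, the smallest this design can give. Results are therefore also given without Ntn1-/- B and C, a choice made after seeing the data. The summed liver plasma protein markers were at 4725 to 10873 in Ntn1-/- chimeras and 9472 to 21708 in WT chimeras. Most of that sum was Trf, with means of 7606 in Ntn1-/- chimeras and 9605 in WT chimeras. The mean log2 level of the list was lower by 2.24 in Ntn1-/- chimeras (exact 2-sided permutation p = 0.114). Alb was at 77.0 to 1102 in Ntn1-/- chimeras and 114 to 4640 in WT chimeras, with WT B at 114.

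Complement C1q opens the classical pathway. It is built from A, B and C chains encoded by C1qa, C1qb and C1qc, and unlike most complement proteins, which the liver makes, it comes largely from macrophages, where it also tags dying cells for uptake. Resident-type macrophages of the arterial adventitia carry scavenger and endocytic receptors such as the mannose receptor, the folate receptor beta and CD163, and take up dying cells through receptors such as MERTK. The C1q chains lie side by side on chromosome 4 of mm9, all on the minus strand, with C1qb from 136436044 to 136442102, C1qc from 136445719 to 136448980 and C1qa from 136451832 to 136454718, a span of 18675 bases. Of the other members, Mrc1 (14151041 to 14253684, plus strand) and Mertk (128524692 to 128628630, plus strand) lie on chromosome 2, Pf4 (91201461 to 91202407, plus) on 5, Cd163 (124254669 to 124280545, plus) on 6, Folr2 (108988512 to 108993831, minus) on 7, Cbr2 (120590803 to 120593428, minus) on 11 and F13a1 (36959047 to 37142113, minus) on 13 of mm9, and no member shares exon sequence with another annotated gene. Of the members, 9 of 10 (all but C1qa) had a promoter in the RefSeq table of GRCm38.p6, with 11 windows of the 250 bases before a start site. The promoters of C1qb and C1qc are shown because these neighbours had almost the same profile over the 8 aortas, that of Mrc1 because its profile departed from theirs, and that of Pf4 because it was the member whose groups did not overlap. Each is written 5′ to 3′ along its gene, and capitals mark matches to the PU.1-type letters GAGGAA or the MAF-type letters TGCTGA, searched on both strands, so that a match to GAGGAA on the other strand reads TTCCTC.
C1qb (chr4:136886201-136886450, minus strand): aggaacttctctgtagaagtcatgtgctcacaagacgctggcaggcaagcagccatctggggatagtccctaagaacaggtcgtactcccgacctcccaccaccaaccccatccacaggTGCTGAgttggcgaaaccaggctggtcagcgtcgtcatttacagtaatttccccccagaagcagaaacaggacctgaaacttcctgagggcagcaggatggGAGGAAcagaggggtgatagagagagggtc
C1qc (chr4:136892915-136893164, minus strand): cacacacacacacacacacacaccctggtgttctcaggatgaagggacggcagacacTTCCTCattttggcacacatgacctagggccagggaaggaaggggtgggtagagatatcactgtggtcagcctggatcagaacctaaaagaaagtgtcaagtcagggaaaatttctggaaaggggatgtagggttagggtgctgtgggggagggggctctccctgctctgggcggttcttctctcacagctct
Mrc1 (chr2:14229164-14229413, plus strand): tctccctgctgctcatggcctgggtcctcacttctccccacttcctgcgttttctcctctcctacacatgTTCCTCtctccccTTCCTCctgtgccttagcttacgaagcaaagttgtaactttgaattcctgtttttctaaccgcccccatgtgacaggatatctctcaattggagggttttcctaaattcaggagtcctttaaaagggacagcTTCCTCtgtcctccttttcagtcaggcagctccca
Pf4 (chr5:90772185-90772434, plus strand): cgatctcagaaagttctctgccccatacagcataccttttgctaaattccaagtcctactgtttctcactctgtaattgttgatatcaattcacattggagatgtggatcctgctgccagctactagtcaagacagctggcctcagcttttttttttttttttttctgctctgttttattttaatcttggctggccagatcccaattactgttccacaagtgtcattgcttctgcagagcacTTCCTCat
Counted along the gene, the match to GAGGAA on either strand began at -30 in C1qb, -193 in C1qc and -8 in Pf4, with the start site as the origin, and Mrc1 had 3 matches, at -180, -167 and -35. TGCTGA was matched at -131 in C1qb. Over the members' windows, 6 of 11 held GAGGAA, 3 of 11 TGCTGA and 0 of 11 an IRF-type pair of GAAA letters with any 2 bases between them, beside 23.3%, 16.1% and 2.98% of 32851 windows of the same length in the whole table. No match overlapped another. These matches are letters in a window and were not measured as binding.

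With limma, 0 of the members reached the adjusted threshold of 0.05 between Ntn1-/- and WT aortas, beside 0.0% of all genes. On estimate 8 of the 10 were lower and 2 were higher in Ntn1-/- chimeras, with a median log2 fold change of -0.28, beside -0.01 over all genes tested, of which 52.4% were lower. The general macrophage markers had 17 of 18 lower on estimate and a median of -0.36. Without Ntn1-/- B and C the median was -0.06 for the members and 0.04 for these markers. Mrc1 turned to the other side of 0 with edgeR and DESeq2, and leaving out single libraries turned Mrc1, Cd163 and F13a1. At an unadjusted p under 0.05 there was 1 member, Pf4, beside 15.6% of all genes. edgeR called 0 members, with 2 at an unadjusted p under 0.05 (16.5% of all genes). DESeq2 called 1 member, again Pf4, where it called 3.63% of all genes, and had 2 at an unadjusted p under 0.05 (18.1%). The groups did not overlap at 1 of the 10 members, beside 10.5% of all genes, so that the share of the members was near that of the whole table. In whole aorta, fewer macrophages and less RNA per macrophage cannot be told apart.

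C1q varied most among Ntn1-/- aortas and overlapped between the groups. C1qa was at 7276, 3473, 8397 and 12947 normalized reads in Ntn1-/- A to D, against 6718, 13034, 12505 and 11383 in WT A to D. C1qb was at 9006, 4736, 11549 and 17391 in Ntn1-/- A to D and at 8428, 16619, 15630.1 and 15279 in WT A to D. C1qc had 7322, 3976, 9289.9 and 13817 normalized reads in Ntn1-/- A to D and 7021, 13625, 12993 and 12408 in WT A to D. In each chain Ntn1-/- B was the lowest of the 8 libraries and Ntn1-/- D stood with WT B, C and D at the top, while WT A lay below 3 Ntn1-/- aortas, so that the groups overlapped. The mean of C1qa was 8023 ± 3901 in Ntn1-/- chimeras and 10909.8 ± 2878 in WT chimeras (SD, n = 4 each), a log2 fold change of -0.55 (95% confidence interval -1.41 to 0.32, limma adjusted p = 0.511). Those of C1qb and C1qc were -0.49 (adjusted p = 0.558) and -0.51 (adjusted p = 0.524). The 3 chains together took 0.101%, 0.0544%, 0.130% and 0.204% of the reads in genes in Ntn1-/- A to D, against 0.0937%, 0.186%, 0.177% and 0.159% in WT A to D. The estimate depended on single libraries: the log2 fold change of C1qa was -0.19 without Ntn1-/- B and -0.12 without Ntn1-/- B and C, against -0.82 (unadjusted p = 0.0432, adjusted p = 0.330) without Ntn1-/- D and -0.76 without WT A.

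**Figure D1:**
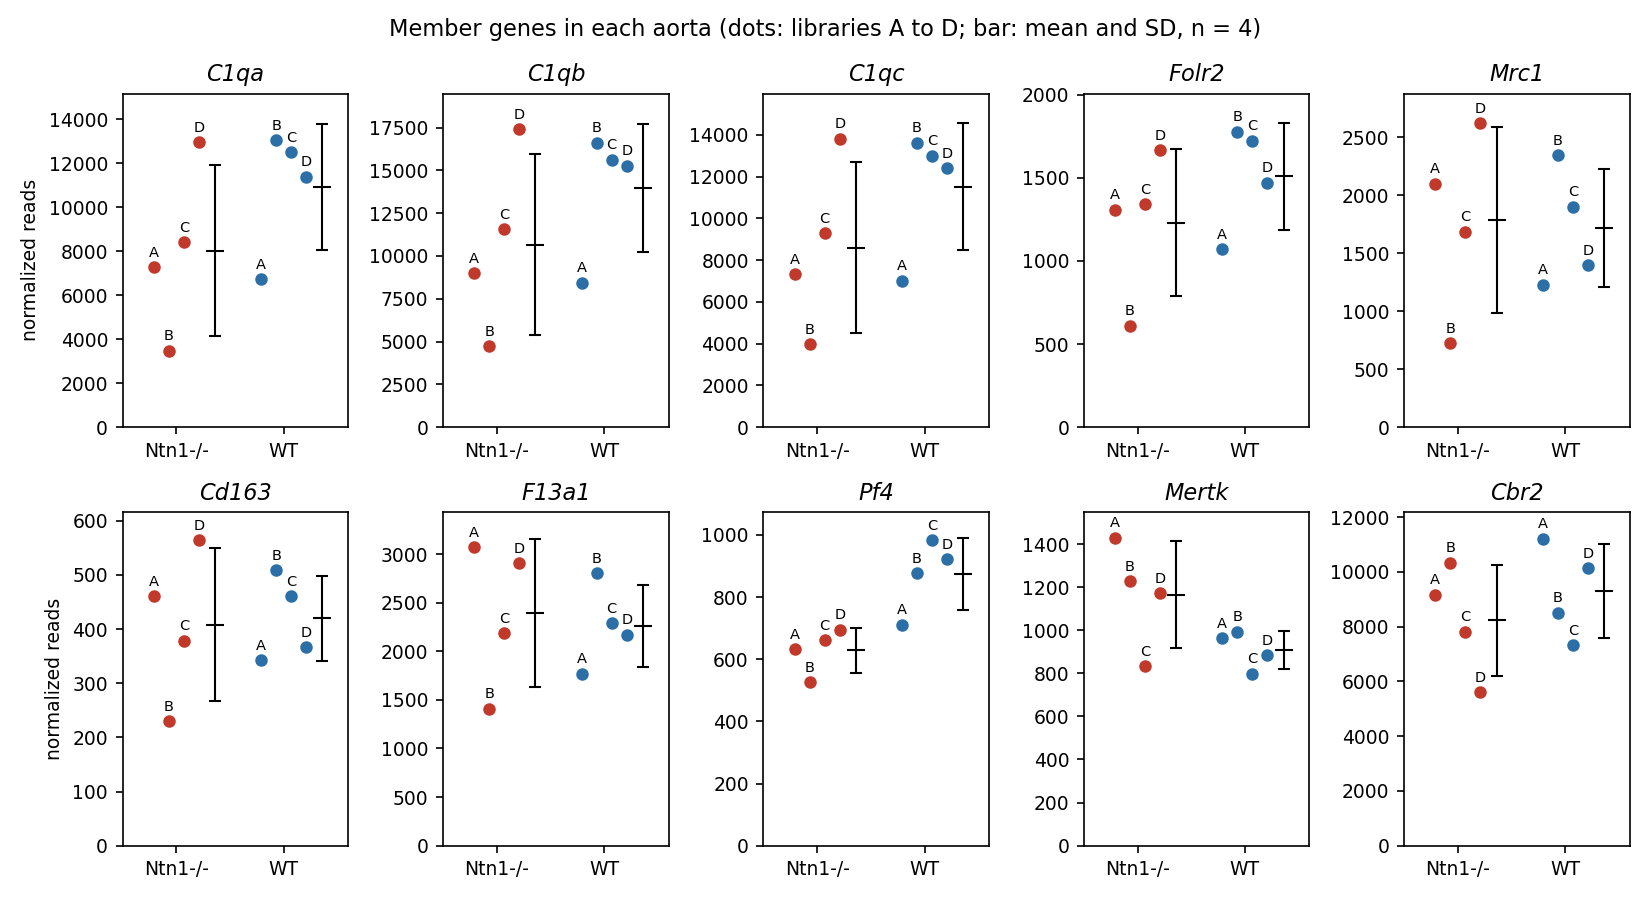
Normalized reads (y axes, from 0) of the 10 genes in each aorta, with Ntn1-/- libraries A to D on the left and WT libraries A to D on the right of each panel, and the mean and SD (n = 4) as a bar. Pf4 is the panel in which the groups do not overlap, at 527 to 696 normalized reads in Ntn1-/- chimeras and 712 to 984 in WT chimeras.

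The receptor genes were also lowest in Ntn1-/- B. Folr2, which encodes folate receptor beta, was at 1307, 609, 1339 and 1666 normalized reads in Ntn1-/- A to D, against 1071, 1776, 1723 and 1471 in WT A to D. Like C1q it was lowest in Ntn1-/- B and its groups overlapped, with a log2 fold change of -0.36 (95% confidence interval -1.05 to 0.33, limma adjusted p = 0.586). Without Ntn1-/- B and C its log2 fold change was -0.01. Mrc1, the mannose receptor CD206 that binds glycoproteins and microbial sugars, was at 2099, 725, 1685 and 2618 normalized reads in Ntn1-/- A to D and at 1226, 2344, 1901 and 1394 in WT A to D. Ntn1-/- D was the highest and Ntn1-/- B the lowest of the 8 libraries, so that both ends of the range lay in Ntn1-/- chimeras. Its log2 fold change was -0.05 (95% confidence interval -0.92 to 0.83, limma adjusted p = 0.972), turning to 0.34 without Ntn1-/- B and 0.50 without Ntn1-/- B and C, none of which passed. Cd163, the scavenger receptor for haemoglobin bound to haptoglobin, was at 460.4, 230.1, 379 and 565 normalized reads in Ntn1-/- A to D and at 343, 509, 460.5 and 367 in WT A to D. The order of the libraries was that of Mrc1 but for 1 exchange, with a log2 fold change of -0.09 (95% confidence interval -0.69 to 0.50, limma adjusted p = 0.893) that turned to 0.16 without Ntn1-/- B.

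Mertk, the receptor tyrosine kinase through which macrophages bind dying cells by way of the bridging proteins Gas6 and protein S, leaned the other way. It was at 1429, 1227, 833 and 1171 normalized reads in Ntn1-/- A to D, against 963, 994, 797 and 883 in WT A to D. Ntn1-/- A, B and D lay above every WT aorta and Ntn1-/- C below 3 of the 4. The mean was 1165 ± 248 in Ntn1-/- chimeras and 909 ± 87.9 in WT chimeras (SD, n = 4 each), a log2 fold change of 0.34 (95% confidence interval -0.02 to 0.70, limma adjusted p = 0.340). Without Ntn1-/- C it was 0.49 (limma adjusted p = 0.245), and without Ntn1-/- A it was 0.23.

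Pf4, platelet factor 4, a CXC chemokine stored in platelets that resident-type macrophages also transcribe, was the member with the smallest p. It was at 632, 527, 662 and 696 normalized reads in Ntn1-/- A to D, against 712, 877, 984 and 922 in WT A to D. Every Ntn1-/- aorta was below every WT aorta. The mean was 629 ± 73.0 in Ntn1-/- chimeras and 873 ± 117 in WT chimeras (SD, n = 4 each), a log2 fold change of -0.47 (95% confidence interval -0.75 to -0.19, unadjusted p = 0.00457 and adjusted p = 0.248 from limma). By p it was number 83 of the 7827 genes with a lower estimate in limma. The adjusted p was 0.226 from edgeR and 0.032 from DESeq2. Platelet markers went both ways. The integrin chain Itgb3, also made outside platelets, averaged 3027 normalized reads in Ntn1-/- chimeras and 2864 in WT chimeras, Clec1b, the podoplanin receptor, 186 in Ntn1-/- chimeras and 216 in WT chimeras (log2 fold change -0.23, limma adjusted p = 0.802), and Itga2b, the integrin chain of platelets, 149 in Ntn1-/- chimeras and 171 in WT chimeras (log2 fold change -0.19, limma adjusted p = 0.643). Gp6 and Tubb1, which mark platelets and megakaryocytes, had means of 1.45 and 12.9 normalized reads in Ntn1-/- chimeras and 0.589 and 5.13 in WT chimeras, and Ppbp, stored beside Pf4 in platelets, had 37.5 in Ntn1-/- chimeras and 24.7 in WT chimeras. Of the platelet list, 10 of 14 genes were tested, with 5 higher and 5 lower on estimate. At an unadjusted p under 0.05 there was 1 (Gp1bb, a von Willebrand factor receptor chain, log2 fold change -0.39), beside 15.6% of all genes. The summed level was 2450 to 5219 in Ntn1-/- chimeras and 2855 to 4609 in WT chimeras. Most of that sum was Itgb3, so it is no measure of platelets alone. The part of platelets in the value of Pf4 was not tested.

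F13a1, the A subunit of the cross-linking enzyme coagulation factor XIII, which macrophages make, was at 3069, 1408, 2188 and 2904 normalized reads in Ntn1-/- A to D, against 1771, 2803, 2291 and 2172 in WT A to D. As for Mrc1 the groups overlapped, with Ntn1-/- B lowest and Ntn1-/- A and D highest, and a log2 fold change of 0.04 (95% confidence interval -0.52 to 0.60, limma adjusted p = 0.961). Cbr2, carbonyl reductase 2, was at 9174, 10337, 7823 and 5601 normalized reads in Ntn1-/- A to D, against 11220.4, 8509, 7326 and 10141 in WT A to D. Here Ntn1-/- D was lowest and WT A highest, where the C1q chains, Mrc1, Cd163 and F13a1 were lowest in Ntn1-/- B, with a log2 fold change of -0.19 (95% confidence interval -0.66 to 0.28, limma adjusted p = 0.678).

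**Figure D2:**
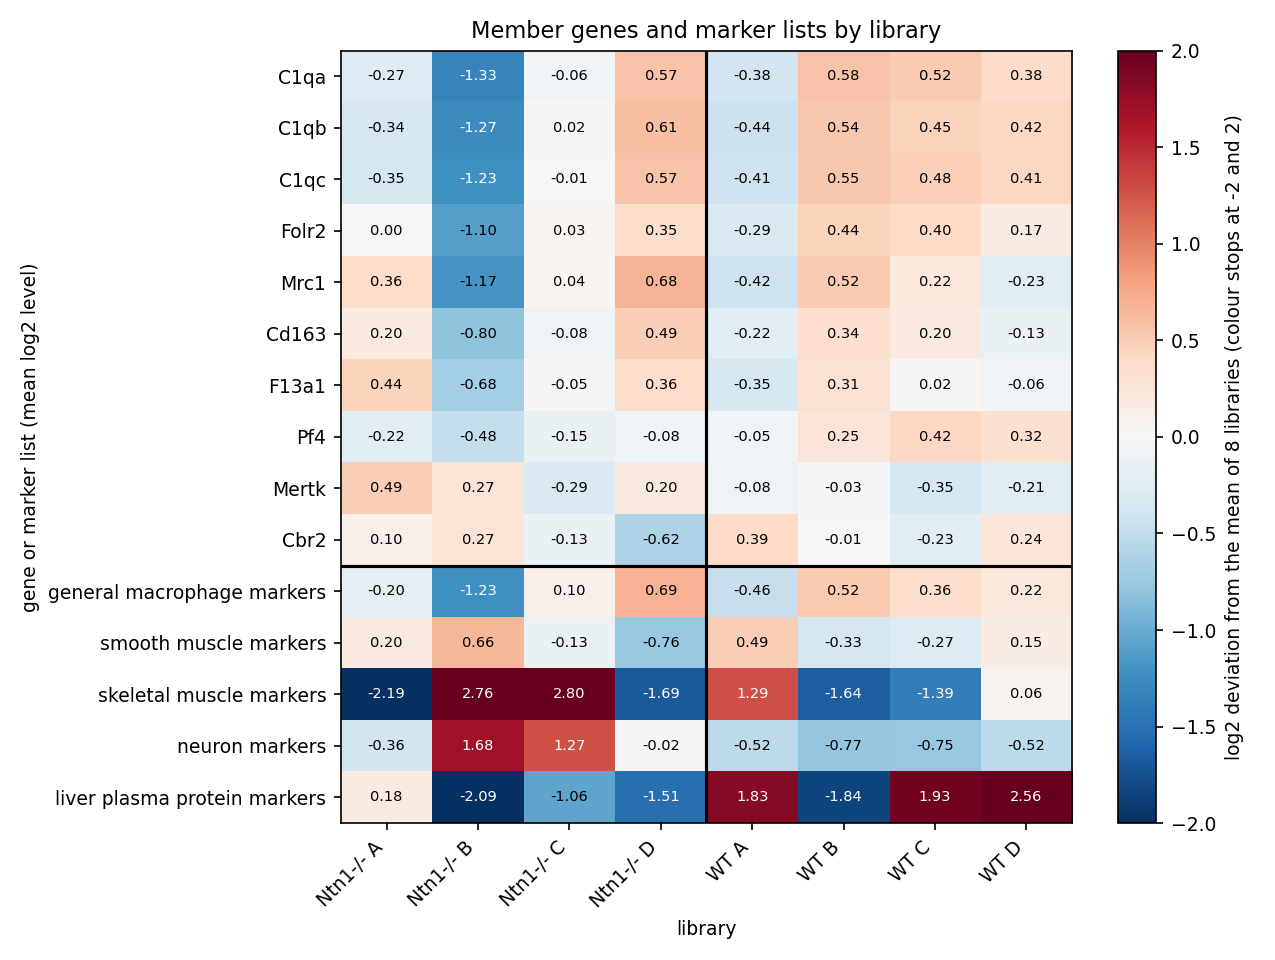
Deviation on the log2 scale of each gene (upper rows) and of the mean log2 level of each marker list (lower rows) from its own mean over the 8 libraries, with Ntn1-/- libraries to the left of the line and WT libraries to the right. The C1q chains and the general macrophage markers share the low of Ntn1-/- B (-1.33 for C1qa and -1.23 for the markers), and Cbr2 shares the low of Ntn1-/- D with the smooth muscle markers (-0.62 and -0.76).

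Across aortas 7 of the 10 genes moved with the macrophage markers and Cbr2 with those of smooth muscle. The 18 general macrophage markers, such as Cd68, Csf1r and Lyz2, summed to 57401, 30015, 73239 and 121701 normalized reads in Ntn1-/- A to D, against 49971, 107244, 82936 and 97520 in WT A to D (exact 2-sided permutation p = 0.543). That is a range of 4.05 times with overlapping groups. C1qb followed their mean log2 level at Pearson r = 0.986 (exact permutation p = 2.48e-05, the smallest it can give, and 0.000533 adjusted) and Spearman rho = 1.0 (p = 4.96e-05, adjusted 0.00107), with r = 0.939 without the 2 libraries farthest from the median and r = 0.994 within groups. Mrc1 followed them less closely, at r = 0.897 (exact permutation p = 0.00476, adjusted 0.0205) and rho = 0.833 (p = 0.0154, adjusted 0.0472), with r = 0.922 within groups. Its r fell to 0.487 without the 2 farthest libraries, so that the relation was weaker in the rest, whose range is narrower. The 7 genes with an adjusted p under 0.05 for r were the C1q chains, Mrc1, Folr2, Cd163 and F13a1, with r from 0.794 to 0.986, and without the 2 farthest libraries r ran down to 0.0672 (F13a1). By rank F13a1 did not pass, at rho = 0.619 (exact permutation p = 0.115, adjusted 0.198). Cbr2 went with the smooth muscle markers, at r = 0.918 (exact permutation p = 0.00159, adjusted 0.0114) and rho = 0.881 (p = 0.00724, adjusted 0.0260), r = 0.878 without the 2 farthest libraries and r = 0.963 within groups. With the macrophage markers Cbr2 had r = -0.709 (exact permutation p = 0.0477, adjusted 0.0821) and rho = -0.810 (p = 0.0218, adjusted 0.0624). The 2 marker lists themselves ran opposite at r = -0.917 (exact permutation p = 0.000843, adjusted 0.00725) and rho = -0.976 (p = 0.000397, adjusted 0.00284). Cbr2 thus went with the smooth muscle list and not with the macrophage list in these aortas. Because the 2 lists ran opposite, this does not show which cells express Cbr2. Mertk (r = -0.366 with the macrophage markers, exact permutation p = 0.382, adjusted 0.507, and rho = -0.262, p = 0.536, adjusted 0.607) followed neither list. Pf4 had r = 0.705 with the macrophage markers (exact permutation p = 0.0467, adjusted 0.0821, and rho = 0.571, p = 0.151, adjusted 0.250) and r = 0.0273 with the platelet list (exact permutation p = 0.951, adjusted 0.951, and rho = -0.238, p = 0.582, adjusted 0.626). Within groups Pf4 had r = 0.875 with the macrophage markers, beside 0.842 for F13a1, and -0.0238 with the platelet list. Without the 2 farthest libraries its r with the macrophage markers was 0.398. In all 43 relations with marker lists were computed, and all of them share the libraries and their composition.

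**Figure D3:**
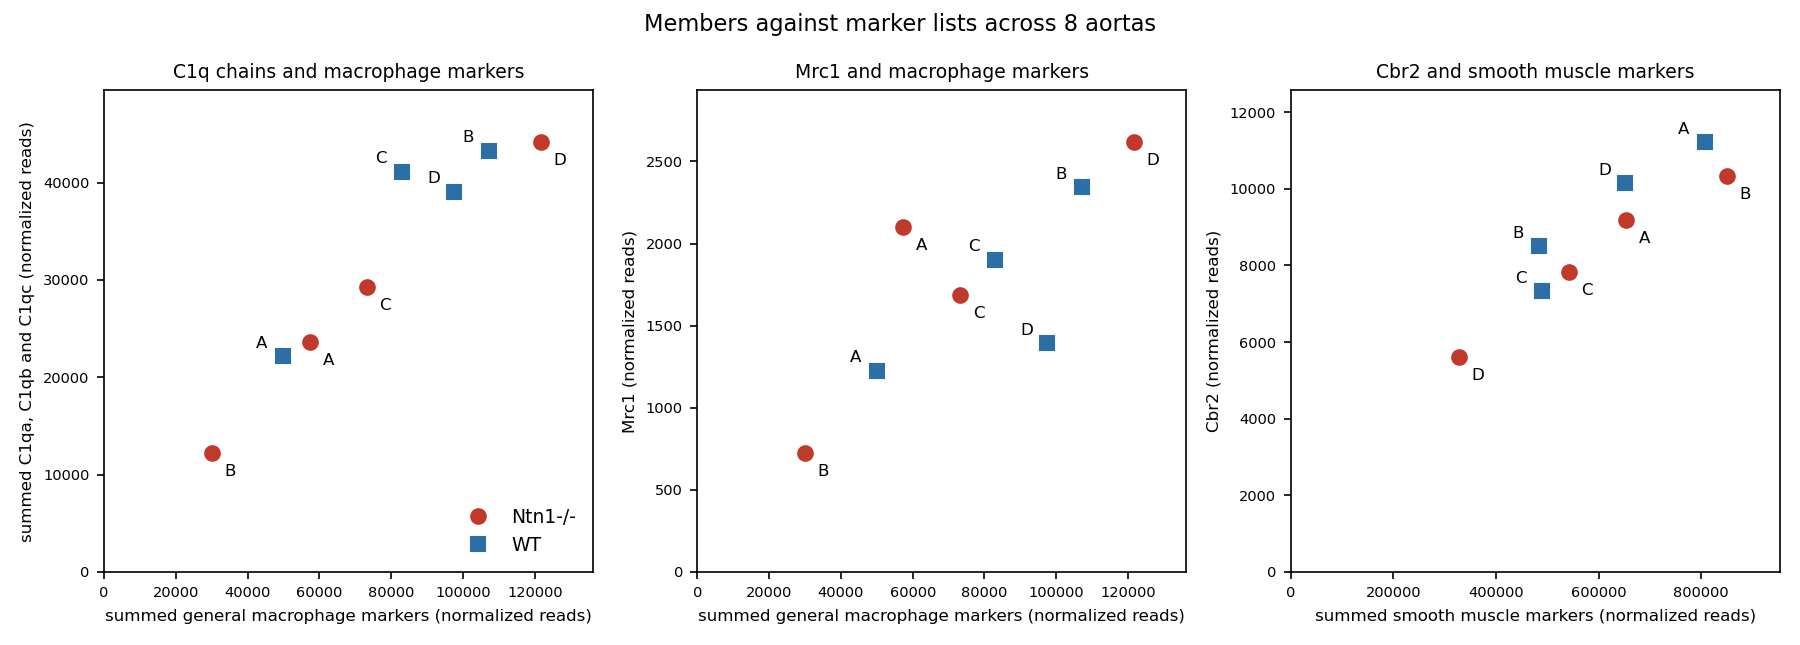
Each point is 1 aorta, circles for Ntn1-/- and squares for WT with the library letter, and all axes are normalized reads from 0. The C1q sum rises with the macrophage markers from 12185 in Ntn1-/- B to 44155 in Ntn1-/- D, Mrc1 scatters more widely, and Cbr2 climbs with smooth muscle from 5601 in Ntn1-/- D to 11220.4 in WT A.

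Among the members 45 pairs were compared, and 22 had an adjusted permutation p under 0.05 for r. The C1q chains were the closest, with r = 0.999 for C1qb and C1qc (exact permutation p = 2.48e-05, adjusted 0.000558) and rho = 1.0 (p = 4.96e-05, adjusted 0.00223), and r = 0.998 without the 2 farthest libraries. Mrc1 stood nearest to Cd163, at r = 0.990 (exact permutation p = 4.96e-05, adjusted 0.000558) and rho = 0.976 (p = 0.000397, adjusted 0.00357), with r = 0.963 without the 2 farthest libraries and 0.994 within groups. F13a1 also stood near Mrc1, at r = 0.956 (exact permutation p = 0.000397, adjusted 0.00223) and rho = 0.929 (p = 0.00223, adjusted 0.0126), with r = 0.901 without the 2 farthest libraries. C1qa and Mrc1 were at r = 0.841 (exact permutation p = 0.0122, adjusted 0.0312), rho = 0.810 (p = 0.0218, adjusted 0.0516) with r = 0.263 without the 2 farthest libraries and 0.918 within groups. Folr2 kept to C1qa, at r = 0.979 (exact permutation p = 7.44e-05, adjusted 0.00067) and rho = 0.976 (p = 0.000397, adjusted 0.00357), with r = 0.938 without them and 0.977 within groups. Folr2 was also near Mrc1, at r = 0.906 (exact permutation p = 0.00451, adjusted 0.0185) and rho = 0.738 (p = 0.0458, adjusted 0.0938), with r = 0.692 without the 2 farthest libraries and 0.963 within groups. Pf4 passed with C1qa at r = 0.823 (exact permutation p = 0.0116, adjusted 0.0312) and with Folr2 at r = 0.776 (p = 0.0139, adjusted 0.0312). It also passed with C1qb at r = 0.802 (adjusted 0.0350) and C1qc at r = 0.820 (adjusted 0.0312). Within groups these ran from 0.880 to 0.905, and by rank none passed (adjusted p of rho 0.104 to 0.213). No difference between these correlations was tested.

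C1q and Mrc1 were also compared with each other within each aorta. The C1q sum was 11.2, 16.8, 17.4 and 16.9 times Mrc1 in Ntn1-/- A to D, against 18.1, 18.5, 21.6 and 28.0 times in WT A to D. Every Ntn1-/- aorta was below every WT aorta, with Ntn1-/- A lowest and WT D highest. Per Mrc1, C1qa was lower in Ntn1-/- chimeras by 0.50 on the log2 scale, C1qb by 0.45 and C1qc by 0.47, and the groups of these ratios did not overlap. These were 3 of the 45 ratios between members, or 6.67%, and all 3 share Mrc1 and 3 nearly identical chains. Over all pairs of tested genes 8.3% had ratios that did not overlap, so that the share among the members was near that of the whole table. The ratio was singled out after its values were seen and has no test.

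With the level of the macrophage markers held in the limma fit, estimates of the C1q chains moved toward 0 and those of Mrc1, F13a1 and Cd163 rose. C1qa was lower in Ntn1-/- chimeras, with a log2 fold change of -0.23 (standard error 0.07, unadjusted p = 0.00845, adjusted p = 0.115), C1qb at -0.18 (adjusted p = 0.217) and C1qc at -0.21 (adjusted p = 0.151). Mrc1 was at 0.25 (adjusted p = 0.368), F13a1 at 0.21 (adjusted p = 0.395) and Cd163 at 0.10 (adjusted p = 0.639), with higher estimates in Ntn1-/- chimeras. Pf4 stayed at -0.39 (unadjusted p = 0.000816, adjusted p = 0.0876) and Cbr2 was at -0.34 (adjusted p = 0.144). Members past the adjusted threshold numbered 0, beside 0.0402% of all genes, and 4 had an unadjusted p under 0.05, beside 23.6% of all genes in that fit. With smooth muscle markers as the covariate, chosen after seeing the data, the C1q chains were at -0.51 to -0.56 with smaller errors (0.12 to 0.13), 6 members had an unadjusted p under 0.05, beside 25.8% of all genes, and the lowest adjusted p among members was 0.0823 (0.0201% of all genes passed). Without Ntn1-/- B and C 3 members, Pf4, Mertk and F13a1, had an unadjusted p under 0.05, beside 13.6% of all genes, with log2 fold changes of -0.39, 0.51 and 0.42 and none past the adjusted threshold.

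**Figure D4:**
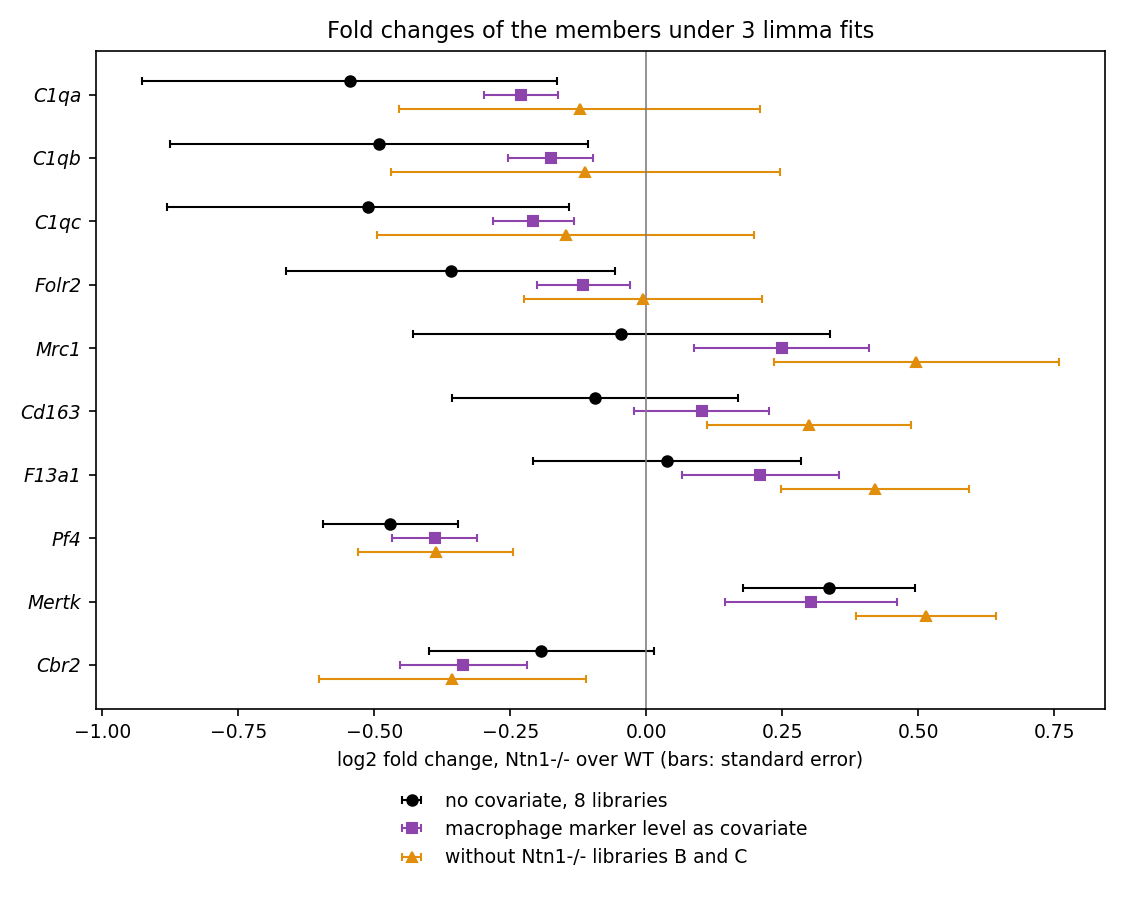
Log2 fold change of each gene, Ntn1-/- over WT (x axis, bars are standard errors), in limma with all 8 libraries (circles), with the macrophage marker level as a covariate (squares) and without Ntn1-/- B and C (triangles). Pf4 keeps an estimate between -0.47 and -0.39 in the 3 fits, whereas the C1q chains move toward 0 and Mrc1 from -0.05 to 0.50.

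Per kilobase of exon, the chain genes were among the most abundant of the set. C1qb averaged 11332 normalized reads per kilobase over the 8 aortas, C1qa 9102, Cbr2 6606 and C1qc 5208, followed by Folr2 at 1296, Pf4 at 1282, F13a1 at 361, Mrc1 at 294, Mertk at 239 and Cd163 at 92.2. C1qb was above C1qa in 8 of 8 aortas, whereas Folr2 and Pf4 changed places in 4 of 8 and Cbr2 and C1qc in 3 of 8. The ranges of neighbours in this order overlapped except between C1qc and Folr2, Pf4 and F13a1, and Mertk and Cd163. Exon lengths came from an annotation that may not be the one used for counting.

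Other genes of resident-type macrophages were lower on estimate in Ntn1-/- chimeras without passing. Of 27 such genes, all tested, 25 were lower and 2 higher on estimate, with a median log2 fold change of -0.20, beside -0.01 over all genes, -0.06 with the macrophage marker level held and 0.03 without Ntn1-/- B and C. None passed limma's adjusted p, and 4 had an unadjusted p under 0.05 (7.25% of all genes were lower at that p). Fcgrt, the neonatal Fc receptor, was at 5093 to 6331 normalized reads in Ntn1-/- chimeras and 6364 to 7870 in WT chimeras, without overlap, with a log2 fold change of -0.30 (limma adjusted p = 0.258). Ninj1, which ruptures the membrane of dying cells, had -0.29 (limma adjusted p = 0.256), Timd4, a receptor for phosphatidylserine, -0.69 (limma adjusted p = 0.263) and Ltc4s, the leukotriene C4 synthase, -0.66 (limma adjusted p = 0.292). Timd4 was low throughout, at 25.7 to 36.6 normalized reads in Ntn1-/- chimeras and 35.2 to 69.9 in WT chimeras. Lyve1, which marks resident macrophages and lymphatic endothelium, was at 556 to 1290 in Ntn1-/- chimeras and 758 to 1195 in WT chimeras. The lymphatic marker Prox1 had a mean of 7.41 in Ntn1-/- chimeras and 4.24 in WT chimeras, and Ccl21a was at 0 in every library. Pdpn averaged 691 in Ntn1-/- chimeras and 974 in WT chimeras (log2 fold change -0.53, limma adjusted p = 0.275). Flt4 averaged 433 in Ntn1-/- chimeras and 417 in WT chimeras. Of the lymphatic list, 5 of 7 genes were tested, with 3 higher and 2 lower on estimate.

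Of the other complement genes, 30 of 36 were tested, with 24 lower and 6 higher on estimate, a median log2 fold change of -0.23 (-0.03 without Ntn1-/- B and C) and none past limma's adjusted p. C8a, a chain of the membrane attack complex, was at 2.59 ± 1.79 normalized reads in Ntn1-/- chimeras and 23.9 ± 13.8 in WT chimeras (SD, n = 4 each), with a log2 fold change of -2.58 (limma adjusted p = 0.248, DESeq2 adjusted p = 0.00931). Cfi, which cleaves C3b and C4b, had -1.15 (limma adjusted p = 0.297) and Hc, complement C5, -1.80 (limma adjusted p = 0.339). These are made mainly in liver, and liver genes moved with them: all 16 liver plasma protein markers were lower on estimate, with a median of -2.29. Of these, 9 had an unadjusted p under 0.05 (7.25% of all genes were lower at that p). Without Ntn1-/- B and C the median was -1.84, with 1 at an unadjusted p under 0.05, beside 13.6% of all genes in either direction. The part of liver reads in the complement values was not tested. Serping1, the inhibitor of the C1 proteases that C1q carries, was at 18579 to 21783 normalized reads in Ntn1-/- chimeras and 21968 to 24605 in WT chimeras. Its groups did not overlap, and its log2 fold change was -0.23 (limma adjusted p = 0.332).

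Genes for the uptake of dying cells, beside Mertk, split evenly. All 22 were tested, 10 higher and 12 lower on estimate, with a median of -0.06. At an unadjusted p under 0.05 there was 1 (Timd4), beside 15.6% of all genes. Gas6, a ligand of MERTK, was at 21731 to 25431 normalized reads in Ntn1-/- chimeras and 24433 to 29273 in WT chimeras (log2 fold change -0.20, limma adjusted p = 0.439). Dock1, which activates Rac in engulfment, had 0.16 (limma adjusted p = 0.439) and the engulfment adaptor Gulp1 0.27 (limma adjusted p = 0.462). Opposite estimates for the receptor Mertk and its ligand Gas6 stood side by side without either passing.

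The genes most like the C1q chains over the 8 aortas, by Pearson r with their mean log2 level, were Fcgr3 (0.998), an Fc receptor for IgG, Fcer1g (0.997), the signalling chain it shares with other Fc receptors, Cd68 (0.994), the lysosomal macrophage marker, the chemokine Ccl6 (0.993) and Gramd1b (0.993), a sterol transfer protein. Of these, Fcer1g and Cd68 belong to the macrophage marker list. Fcgr3 was at 719.8 to 2765 normalized reads in Ntn1-/- chimeras and 1429 to 2627 in WT chimeras (log2 fold change -0.51, limma adjusted p = 0.540). The genes most like Mrc1 were Sla (0.992), an adaptor that dampens receptor signalling, Cd163 (0.990), Stard8 (0.990), Adam12 (0.989) and the chemokine receptor Ccr1 (0.989), with log2 fold changes from -0.15 to 0.05. In the order of likeness to C1q over all genes Folr2 stood at 120, Cd163 at 1134, Mrc1 at 1373, Pf4 at 1478 and F13a1 at 2246, while Mertk and Cbr2 had negative values. On chromosome 4, Ephb2, the next gene beyond C1qb with reads, was at 312 normalized reads in Ntn1-/- chimeras and 354 in WT chimeras, Zbtb40, beyond C1qa, at 331 in Ntn1-/- chimeras and 348 in WT chimeras, and Epha8 between C1qa and Zbtb40 at under 1 in both groups.

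Markers of other cells that can express the members were measured beside them. The Kupffer cell gene Clec4f had a mean of 3.48 normalized reads in Ntn1-/- chimeras and 12.8 in WT chimeras, and Cd207 of 0.466 in Ntn1-/- chimeras and 2.75 in WT chimeras, while Cd5l, a protein of several tissue macrophages, was at 6223 to 29541 in Ntn1-/- chimeras and 7706 to 27859 in WT chimeras. Of the Kupffer list, 6 of 8 genes were tested and all 6 were lower on estimate, beside 52.4% of all genes. Their median log2 fold change was -0.56, and -0.09 without Ntn1-/- B and C. Clec4f and Cd207 were too low to be tested. Vsig4, Timd4, Cd5l, Slc40a1 and Fcna were already counted among the other resident-type genes, so this is largely the same result again. Leukocyte and monocyte markers summed to 5120 to 9226 in Ntn1-/- chimeras and 5622 to 8602 in WT chimeras (exact 2-sided permutation p = 0.943), and dendritic cell markers to 764 to 1843 in Ntn1-/- chimeras and 853 to 1489 in WT chimeras (exact 2-sided permutation p = 0.943). The largest parts of the leukocyte sum, Ly6c1 and Nr4a1, had opposite log2 fold changes of -0.35 and 0.56 (limma adjusted p = 0.495 and 0.255). Ptprc averaged only 859 in Ntn1-/- chimeras and 759 in WT chimeras, so the sum says little about leukocyte number. In the lipid-associated macrophage list all 11 genes were lower on estimate, with a median of -0.36 and a summed level of 101193 to 221696 in Ntn1-/- chimeras and 144057 to 246470 in WT chimeras (exact 2-sided permutation p = 0.286). Fibroblast markers, which mark the adventitia, summed to 206436 to 377535 in Ntn1-/- chimeras and 239942 to 410908 in WT chimeras (exact 2-sided permutation p = 0.400), and the smooth muscle list gave p = 1.0 by the same test. Thymocyte markers summed to 449.6 to 1244 in Ntn1-/- chimeras and 482 to 877 in WT chimeras (exact 2-sided permutation p = 0.343) and mast cell markers to 1016 to 1529 in Ntn1-/- chimeras and 1141 to 1754 in WT chimeras (exact 2-sided permutation p = 0.229). The part of any of these cells in the values of the members was not tested.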

How the data were processed

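The authors sequenced RNA of 8 mouse aortas (single-end reads of 50 nt), aligned them to mm9 with TopHat 2.0.9 allowing 2 mismatches, and counted reads per gene with featureCounts (version, annotation and strand setting not given in the sources used here). The deposited signal is the read count of each gene divided by a DESeq2 size factor per library, and is called normalized reads here. The table also holds the authors' fold changes and p-values and pathway sheets, which were not used. Multiplying by the size factors gave whole reads (within 0.001) for 100.0% of 187360 values, with 19879329 to 28202931 reads in genes per library, and 3906 of 23420 genes had no read.

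The members and lists were chosen with earlier results of these data known. Genes with a mean of at least 10 normalized reads were tested with limma 3.58.1 (R 4.3.3) on log2(value + 1), which understates the change of low genes, with Benjamini-Hochberg adjustment over all 14931 genes tested and a threshold of 0.05. Named genes were all 10 members, up to 4 genes of each pathway list with the smallest limma p, up to 3 of each marker list with the highest mean, the 5 genes most like C1q and the 5 most like Mrc1 over the 8 libraries, and Ntn1. Defining markers of platelets, Kupffer cells and lymphatic vessels and the neighbours of the C1q genes were added to the text once their values were known. edgeR 4.0.16 and DESeq2 1.42.0 on the recovered reads, other filters and pseudocounts, marker covariates and leaving out libraries were alternatives. Summed marker levels were compared by an exact permutation test over 70 arrangements of libraries. The fits were tested on simulated data. Each library came from a separate mouse. Among 28 pairs of libraries none agreed within sampling noise (smallest chi-square per degree of freedom 9.60). The table has 27 genes with a date in place of a symbol, none of them a member.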

Additional observations from a re-analysis of the deposited data

Results flagged for a closer look

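Among 162 groups of 4 libraries examined, 2 had a library far from the other 3. Many of these genes moved together, so this count has no chance rate to be read against. C1qb in WT A was at 8428 normalized reads, against 15279 to 16619 in the other WT libraries. The other C1q chains were also low in WT A without being flagged. C1qa was at 6718, against 11383 to 13034 in the other WT libraries, and C1qc at 7021, against 12408 to 13625. Alb, the serum albumin gene of liver, was at 114 normalized reads in WT B, against 4242 to 4639.6 in the other WT libraries.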

How the results depend on the processing

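Over 230 comparisons of a member with an alternative, 16 reversed sign, and 7 members never reversed. Mrc1 turned to 0.057 with edgeR and TMM, 0.054 with edgeR and DESeq2 size factors, 0.056 with DESeq2, 0.070 with edgeR without a filter, 0.25 with the macrophage covariate, and 0.50 without Ntn1-/- B and C. Cd163 turned to 0.10 with the macrophage covariate and 0.30 without Ntn1-/- B and C. Leaving out 1 library gave log2 fold changes of -0.82 to -0.19 for C1qa, -0.78 to -0.15 for C1qb, -0.78 to -0.19 for C1qc, -0.28 to 0.34 for Mrc1 (0.34 without Ntn1-/- B, 0.12 without WT B, 0.02 without WT C), -0.54 to -0.05 for Folr2, -0.27 to 0.16 for Cd163 (0.16 without Ntn1-/- B, 0.0042 without WT B), 0.23 to 0.49 for Mertk, -0.57 to -0.39 for Pf4, -0.10 to 0.27 for F13a1 (-0.10 without Ntn1-/- A, -0.08 without Ntn1-/- D, -0.07 without WT A) and -0.31 to -0.02 for Cbr2. The cause was not tested.

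By adjusted p DESeq2 called 1 member, Pf4, and limma and edgeR 0. Pf4 had an unadjusted p under 0.05 in all 23 alternatives, with adjusted p from 0.032 to 0.962. Members at an unadjusted p under 0.05 numbered 1 in limma, 2 with edgeR (TMM, size factors and no filter) and DESeq2, 4 with the macrophage covariate, 3 without Ntn1-/- B and C, 6 with the smooth muscle covariate, and 1 to 3 when leaving out 1 library (3 without Ntn1-/- D, where C1qa was at -0.82). The share of all genes at that unadjusted p was 13.6% to 25.8% in the fits where it was computed. It was not computed when leaving out 1 library, nor for edgeR with size factors or without a filter. Those counts therefore have no background to be read against. Over all genes 542 passed the adjusted p in DESeq2, 6 with the macrophage covariate and 3 with the smooth muscle covariate, against 0 in limma. On the mean log2 scale leukocyte and monocyte markers were at -0.079 (exact permutation p = 0.83) and lymphatic endothelial markers at 0.14 (exact permutation p = 0.457), opposite in sign to their sums. Neuron markers were at 1.28 (exact permutation p = 0.0286), against 0.85 (p = 0.0857) by their sum. Leaving out Ntn1-/- B and C and the smooth muscle covariate were chosen after seeing the data.

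No sign was seen that library letters pair the mice: deviations of same-letter libraries correlated at -0.0082, -0.30, 0.15 and -0.26 for A to D. Those of different letters ran from -0.66 to 0.64, so this check cannot settle whether the letters pair. With the letter as a block 2 members had an unadjusted p under 0.05 in limma and 2 in edgeR. The share of all genes at that p was not computed for the block fits. With 4 mice a group and standard errors of 0.12 to 0.38 for members, small differences cannot be seen, and whole aorta does not separate cells.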
